A study of Mus musculus with 7 samples.

Results

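The imprinted genes of distal mouse chromosome 7 were examined in embryonic stem cells in which Mettl3 was knocked down. The members are 10 genes of the H19-Igf2 and Kcnq1 imprinted domains: H19, Igf2, Kcnq1ot1, Kcnq1, Cdkn1c, Phlda2, Slc22a18, Ascl2, Cd81 and Tssc4. They were taken as the probe sets whose gene symbol in the annotation of the array platform is exactly one of these names, which gave 121 of 1201338 probe sets and 10 of the 16353 genes that could be tested. A probe set is a small group of array probes that reads 1 stretch of a transcript, usually an exon or part of one. All cells were of the J-1 line, grown in full medium after lentiviral infection, and every sample carried a short hairpin RNA. In 2 samples the virus carried Mettl3 shRNA #1 (here hairpin 1), in 2 samples Mettl3 shRNA #2 (hairpin 2), and in the 3 control samples a luciferase hairpin, whose target comes from insects and is not a mouse gene. Total RNA of each sample was hybridised to 1 exon array. Mettl3 encodes the catalytic subunit of the enzyme that writes N6-methyladenosine on RNA, and the study asked how its loss changes gene expression. Whether replicates were grown as separate cultures is not stated in the labels, and the p-values reflect the scatter among these particular samples, part or all of which may be technical.

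An imprinted gene is expressed mainly from the copy inherited from one parent. In the H19-Igf2 domain the control region is methylated on the paternal chromosome and bound by CTCF on the maternal one, where the bound CTCF keeps Igf2 from the enhancers that H19 then uses. In the neighbouring Kcnq1 domain the noncoding RNA Kcnq1ot1 starts within Kcnq1 on the paternal chromosome, runs antisense to it and silences surrounding genes in cis, among them Cdkn1c and Phlda2, which are expressed from the maternal copy. The arrays read the sum of both parental copies, so no value below says which copy it came from. As the RNA came from whole cultures, a higher level in every cell and a larger share of expressing cells cannot be told apart.

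Mettl3 itself was lower with both hairpins. Its gene value was 8.97 and 8.67 with hairpin 1 and 8.71 and 8.66 with hairpin 2, against 10.38, 10.46 and 10.14 with luciferase. All gene values are on a log2 scale, on which a step of 1 is a 2-fold difference; each is the median over the probe sets of the gene that were not dim. The log2 fold change was -1.50 with hairpin 1 and -1.64 with hairpin 2 (limma, adjusted p = 0.000361 and 0.000424). Any 2 arrays correlated at 0.970 to 0.980 over all probe sets.

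Of the 10 members, 2 were called with hairpin 1 and 3 with hairpin 2, all of them higher than with luciferase. A gene was called where its Benjamini-Hochberg adjusted p over all 16353 genes, from limma, was below 0.05. Kcnq1ot1 and Phlda2 rose with both hairpins, and H19 rose with hairpin 2. The background was 5.89% of all genes called with hairpin 1 in either direction and 3.97% called higher, and 3.79% with hairpin 2 in either direction and 2.71% called higher. The genes called with hairpin 1 were 649 higher and 315 lower, and with hairpin 2 443 higher and 176 lower; with each array centred on its median gene value they were 578 and 566 with hairpin 1, and 326 and 256 with hairpin 2. The members as a set did not shift far: their median log2 fold change was -0.03 with hairpin 1 and 0.15 with hairpin 2, where the median of all genes was -0.01 and 0.01. The 2 comparisons share the 3 luciferase arrays, so a rise with both hairpins is not 2 independent observations.

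Both hairpin 1 arrays lay above all 3 luciferase arrays for 3 members and below them for 2 members; over all genes these shares were 20.9% and 17.3%. With hairpin 2 the arrays lay above for 5 members and below for 2 members, where the shares over all genes were 22.9% and 15.4%. Igf2, Kcnq1ot1 and Phlda2 were the members above with both hairpins, joined by H19 and Ascl2 with hairpin 2. Kcnq1 was below with both, Tssc4 with hairpin 1 and Cdkn1c with hairpin 2. In a direct comparison of the hairpins, H19 was the only member called, lower with hairpin 1 than with hairpin 2; 0.104% of all genes were called in this comparison in either direction and 0.0489% as lower with hairpin 1.

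**Figure D1:**
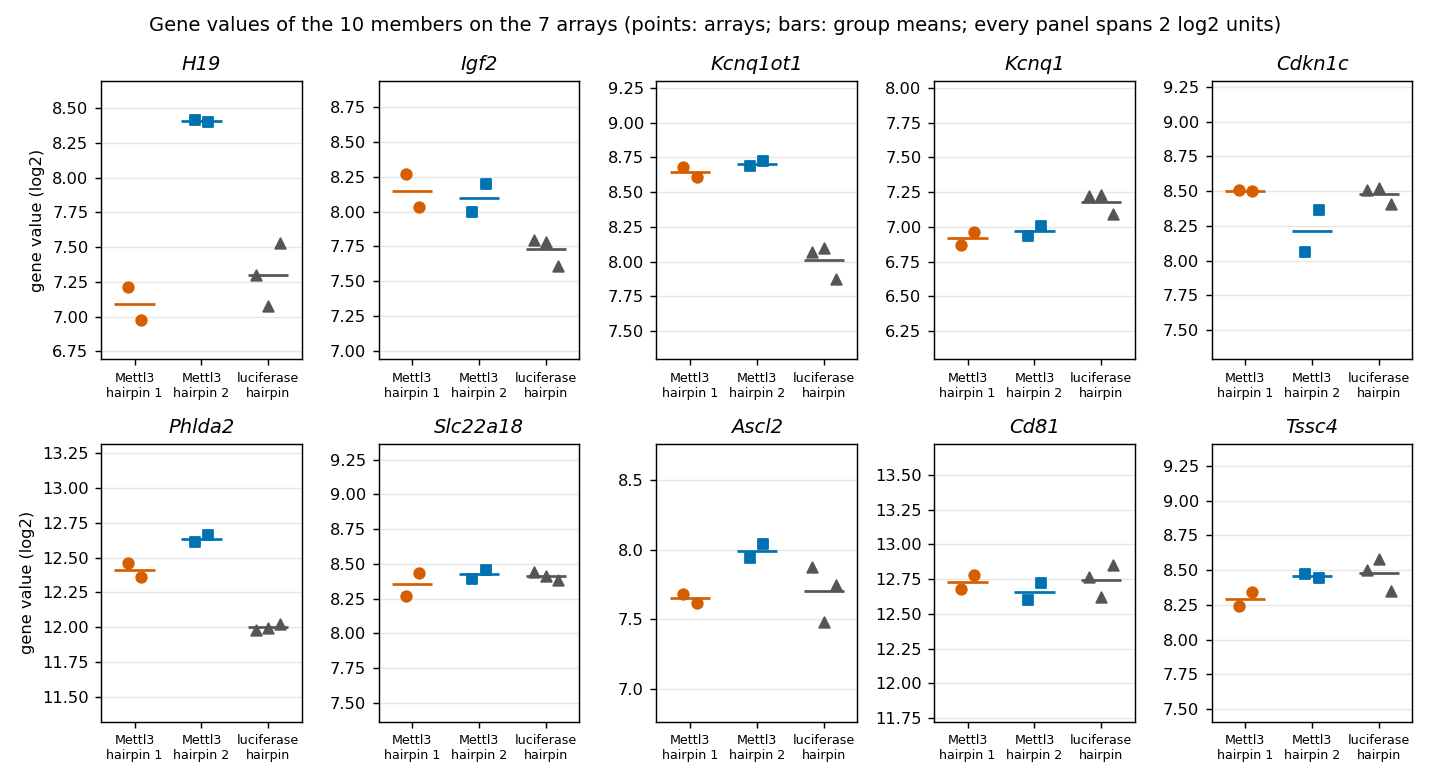
Gene values (log2) of the 10 members on the 7 arrays, in the order hairpin 1, hairpin 2 and luciferase; points are arrays, bars are group means, and each panel spans 2 log2 units around its own centre. Phlda2 and Kcnq1ot1 are higher on all 4 Mettl3 hairpin arrays than on any luciferase array, while H19 is higher on the 2 hairpin 2 arrays alone.

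H19, the maternally expressed noncoding RNA at the start of the first domain, differed most between the hairpins. Its gene value was 7.21 and 6.97 with hairpin 1 and 8.42 and 8.40 with hairpin 2, against 7.30, 7.08 and 7.53 with luciferase. The hairpin 2 arrays stood above every other array, and the hairpin 1 arrays overlapped the luciferase arrays. With hairpin 2 the level was 2.16-fold higher than with luciferase, a log2 fold change of 1.11 ± 0.13 (SE, 95% interval 0.81 to 1.41, limma adjusted p = 0.00377). With hairpin 1 it was -0.21 ± 0.13 (SE, limma adjusted p = 0.401). The difference between the hairpins, hairpin 1 minus hairpin 2, was -1.32 ± 0.15 (SE, 95% interval -1.65 to -0.99, limma adjusted p = 0.0269). The rise with hairpin 2 was called in 16 of 17 alternative settings and missed the threshold with dim probe sets kept (0.93, limma adjusted p = 0.0515). The difference between the hairpins kept its direction and was lost in 6 of 17: with dim probe sets kept, without luciferase replicate 1, and without any 1 of the 4 Mettl3 hairpin arrays (-1.44 to -1.19, limma adjusted p = 0.0688 to 0.331).

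Within H19, 11 of 14 probe sets were bright enough to keep, meaning that their mean log2 value on the 7 arrays exceeded 6.02, the overall probe set median. With hairpin 2, 9 of the 11 lay above all luciferase arrays and 6 were higher by at least 1 on the log2 scale. Their differences from luciferase ran from 0.06 to 2.69. Probe set 4719542 had the largest difference: it read 9.10 and 8.90 with hairpin 1 and 11.15 and 11.29 with hairpin 2, against 8.82, 8.48 and 8.28 with luciferase. It was the only kept probe set of any member to pass the test on single probe sets (2.69 with hairpin 2, limma adjusted p = 0.0397), where 0.00233% of 600669 probe sets were called. This call was lost in 9 of 11 alternative settings, although the difference stayed between 2.57 and 2.84. With a trended spread, 16 member probe sets were called with hairpin 2. The share of all kept probe sets called in that setting was not counted, so the 16 have no background to be read against. With hairpin 1 the 11 differences ran from -0.43 to 0.48, and their median was 0.06 while the difference of the gene value was -0.21; the sign of the hairpin 1 value also changed in 3 of 17 alternative settings. The 3 dim probe sets differed by -0.17 to -0.10 with hairpin 2.

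H19 RNA is also the precursor of a miRNA, miR-675, which is shown because a change in H19 concerns its host transcript. The mature strands lie on the minus strand at chr7:142577112-142577133 (5p) and chr7:142577078-142577099 (3p) in GRCm38.p6, with sequences from RefSeq and the seed, bases 2 to 8, in capitals:
miR-675-5p: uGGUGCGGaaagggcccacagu
miR-675-3p: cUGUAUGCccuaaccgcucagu
The seeds of the 2 strands differ. With 0 probe sets carrying the symbol Mir675, the level of the miRNA was not analysed here.

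Igf2, the paternally expressed insulin-like growth factor that drives fetal growth, lay higher with both hairpins without passing the test. Its gene value was 8.27 and 8.03 with hairpin 1 and 7.99 and 8.20 with hairpin 2, against 7.80, 7.78 and 7.61 with luciferase. All 4 Mettl3 hairpin arrays lay above all luciferase arrays, by a narrow gap. The log2 fold change was 0.42 with hairpin 1 (95% interval 0.16 to 0.68, limma adjusted p = 0.0626) and 0.37 with hairpin 2 (95% interval 0.11 to 0.63, limma adjusted p = 0.120). Hairpin 1 minus hairpin 2 was 0.05 (95% interval -0.23 to 0.34). Other summaries of the same probe sets did call it: taking their mean in place of their median gave 0.42 with hairpin 1 and 0.35 with hairpin 2 (limma adjusted p = 0.00347 and 0.0120).

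The 21 kept probe sets of Igf2 differed among themselves. With hairpin 1, 11 were higher by at least 0.5 and 8 lay within 0.25 of luciferase. With hairpin 2 these counts were 10 and 8, and the same 10 probe sets were higher by at least 0.5 with both hairpins. Probe set 4910905 was one of them, at 8.27 and 8.02 with hairpin 1 and 7.99 and 8.20 with hairpin 2, against 7.60, 7.16 and 7.04 with luciferase. Probe set 4506045 was one of the others, at 8.69 and 8.78 with hairpin 1 and 8.74 and 8.78 with hairpin 2, against 8.65, 8.95 and 8.74 with luciferase. These 2 examples were chosen after their values were seen. The full range of the 21 differences was -0.18 to 0.93 with hairpin 1 and -0.40 to 0.86 with hairpin 2.

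Whether the probe sets of a member changed unequally was tested with diffSplice in limma, which compares each probe set with the rest of its gene. With hairpin 1, Igf2 and Tssc4 were called (adjusted p = 0.000227 and 0.0477), and 4.83% of all genes were. The Tssc4 call was lost with dim probe sets kept and without any 1 of the luciferase arrays, while Igf2 was still called. With hairpin 2, H19 and Igf2 were called (adjusted p = 9.29e-07 and 0.000104), and 2.16% of all genes were. These calls rest on 1 spread shared by all probe sets of a gene. A second test gave each probe set its own spread. In it, limma was run on each probe set minus the mean of its gene on that array. The p-values of a gene's probe sets were then combined by the Simes method, where diffSplice used an F test. The 2 tests thus differ in more than the spread. On simulated data with unequal spreads, drawn independently for each probe set, diffSplice called too many unchanged genes. The second test called fewer of them, but still some. The simulation cannot say which calls on the members hold. In the second, no member was called with either hairpin. An unadjusted Simes p below 0.05 was found for 3 members with each hairpin, and the share of all genes at this level was not counted. The adjusted Simes p for Igf2 was 0.346 with hairpin 1 and 0.496 with hairpin 2, and for H19 with hairpin 2 it was 0.410. That setting called 0.00612% of all genes with hairpin 1 and 0.00612% with hairpin 2, and it was added after the data had been seen.

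**Figure D2:**
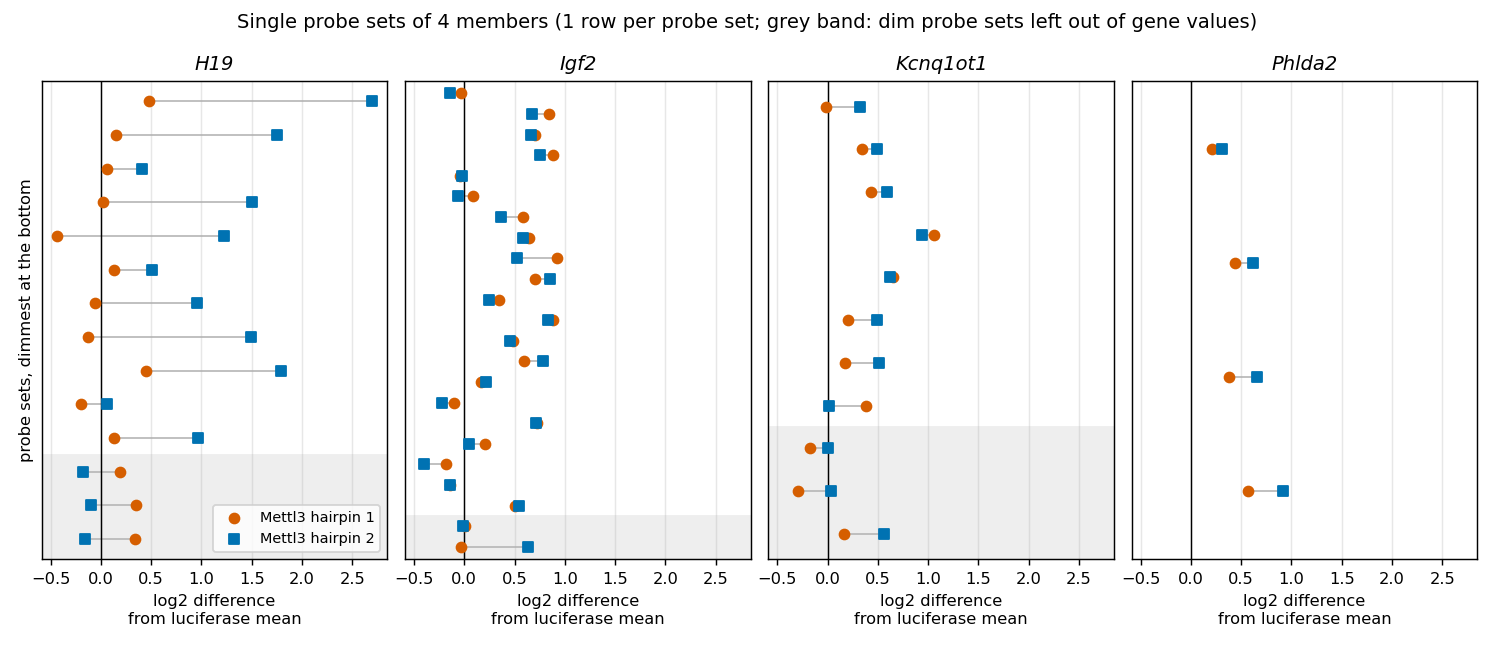
Log2 difference from the luciferase mean for every probe set of H19, Igf2, Kcnq1ot1 and Phlda2, 1 row per probe set with the dimmest at the bottom; circles are hairpin 1 and squares hairpin 2, and the grey band holds dim probe sets that enter no gene value. For H19 the squares reach 2.69 while the circles stay between -0.43 and 0.48 among kept probe sets; for Igf2 circles and squares lie close together; 10 probe sets are higher by at least 0.5 with both hairpins, and 8 with each hairpin lie within 0.25 of 0.

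Kcnq1ot1, the silencing RNA of the second domain, rose with both hairpins. Its gene value was 8.68 and 8.61 with hairpin 1 and 8.69 and 8.72 with hairpin 2, against 8.07, 8.10 and 7.88 with luciferase. The 4 Mettl3 hairpin arrays differed little from each other and did not overlap the luciferase arrays. The level was 1.55-fold higher with hairpin 1, a log2 fold change of 0.63 ± 0.10 (SE, limma adjusted p = 0.00746), and 1.61-fold higher with hairpin 2, at 0.69 ± 0.10 (SE, limma adjusted p = 0.00726). Between the hairpins the difference was -0.06 (95% interval -0.30 to 0.19). With dim probe sets kept, both calls were lost, and the log2 fold change was 0.25 with hairpin 1 and 0.53 with hairpin 2 (limma adjusted p = 0.337 and 0.114). Without hairpin 1 replicate 1 the hairpin 1 call was lost (limma adjusted p = 0.0624), and without hairpin 2 replicate 1 or 2 the hairpin 2 call was (0.0578 and 0.0973).

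Of the 11 probe sets of Kcnq1ot1, 8 were kept, and 4 of these lay above all luciferase arrays with hairpin 1 and 6 with hairpin 2. Probe set 5270147 read 8.97 and 8.98 with hairpin 1 and 8.69 and 9.03 with hairpin 2, against 7.92, 8.03 and 7.80 with luciferase, and was chosen as the one with the largest difference. The median difference over the 8 was 0.36 with hairpin 1 and 0.50 with hairpin 2, both smaller than the log2 fold change of the gene value. The brightest, probe set 5278408, differed by -0.02 with hairpin 1 and by 0.32 with hairpin 2. Because Kcnq1ot1 lies antisense within Kcnq1 and the annotation used here gives no strand for a probe set, signal from this pair of genes cannot be told apart by annotation alone.

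Kcnq1, which encodes a voltage-gated potassium channel subunit, lay lower with both hairpins without passing the test. Its gene value was 6.87 and 6.96 with hairpin 1 and 6.94 and 7.01 with hairpin 2, against 7.22, 7.23 and 7.09 with luciferase. The arrays did not overlap, but neither difference passed the test: -0.26 with hairpin 1 (95% interval -0.47 to -0.05, limma adjusted p = 0.136) and -0.21 with hairpin 2 (95% interval -0.42 to -0.0012, limma adjusted p = 0.264). With dim probe sets kept, the hairpin 1 value was 0.10, the opposite direction. Only 10 of its 19 probe sets were kept, and their differences ran from -0.55 to 0.27 with hairpin 1 and from -0.46 to 0.45 with hairpin 2.

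Phlda2, a maternally expressed gene known in mice for restraining placental growth, was bright in these cells and rose with both hairpins. Its gene value was 12.46 and 12.36 with hairpin 1 and 12.61 and 12.66 with hairpin 2, against 11.98, 11.99 and 12.02 with luciferase. The 3 luciferase arrays lay within 0.05 of each other, and both hairpin groups stood clear of them. The log2 fold change was 0.41 ± 0.09 with hairpin 1 (SE, 1.33-fold, limma adjusted p = 0.0257) and 0.64 ± 0.09 with hairpin 2 (SE, 1.56-fold, limma adjusted p = 0.00605). All 4 probe sets lay above all luciferase arrays with both hairpins, by 0.20 to 0.57 with hairpin 1 and by 0.30 to 0.92 with hairpin 2. Hairpin 1 minus hairpin 2 was -0.23 (95% interval -0.44 to -0.01, limma adjusted p = 0.543). The hairpin 1 call was lost in 7 of 17 alternative settings (0.36 to 0.46, limma adjusted p = 0.0526 to 0.146), among them those that left out 1 of the 3 luciferase arrays or 1 of the 2 hairpin 1 arrays. The hairpin 2 call was lost without hairpin 2 replicate 1 or 2 (limma adjusted p = 0.0511 and 0.0912).

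The 250 bases upstream of the starts of Kcnq1ot1 and Phlda2 are printed because these 2 members moved with both hairpins. Both windows are from RefSeq in GRCm38.p6, on the minus strand, at chr7:143296548-143296797 for Kcnq1ot1 and chr7:143502525-143502774 for Phlda2. Capitals mark the CCAAT box, the GC box (GGGCGG) and the TATA box (TATAAA), all searched on both strands:
Kcnq1ot1: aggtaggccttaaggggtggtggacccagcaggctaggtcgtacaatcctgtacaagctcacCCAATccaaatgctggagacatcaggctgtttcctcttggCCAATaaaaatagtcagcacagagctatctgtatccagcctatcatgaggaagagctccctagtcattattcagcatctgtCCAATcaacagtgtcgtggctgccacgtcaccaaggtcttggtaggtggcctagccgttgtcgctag
Phlda2: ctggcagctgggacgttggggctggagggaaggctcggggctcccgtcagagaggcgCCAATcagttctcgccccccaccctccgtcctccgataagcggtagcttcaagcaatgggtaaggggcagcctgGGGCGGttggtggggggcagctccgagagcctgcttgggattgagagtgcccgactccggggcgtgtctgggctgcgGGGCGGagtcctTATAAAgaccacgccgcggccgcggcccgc
The Kcnq1ot1 window holds 3 CCAAT and 5 CpG dinucleotides. The Phlda2 window holds 1 CCAAT box, 2 GC boxes, 1 TATA box and 21 CpG. Of 32851 such windows, 33.8% hold a CCAAT box and 2.79% at least 3, 32.7% hold a GC box and 12.4% a TATA box; the median number of CpG is 6. The letters TGCCGC, recognised by the imprint-protecting factor ZFP57 when methylated, are in neither window and in 8.7% of all windows.

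**Figure D3:**
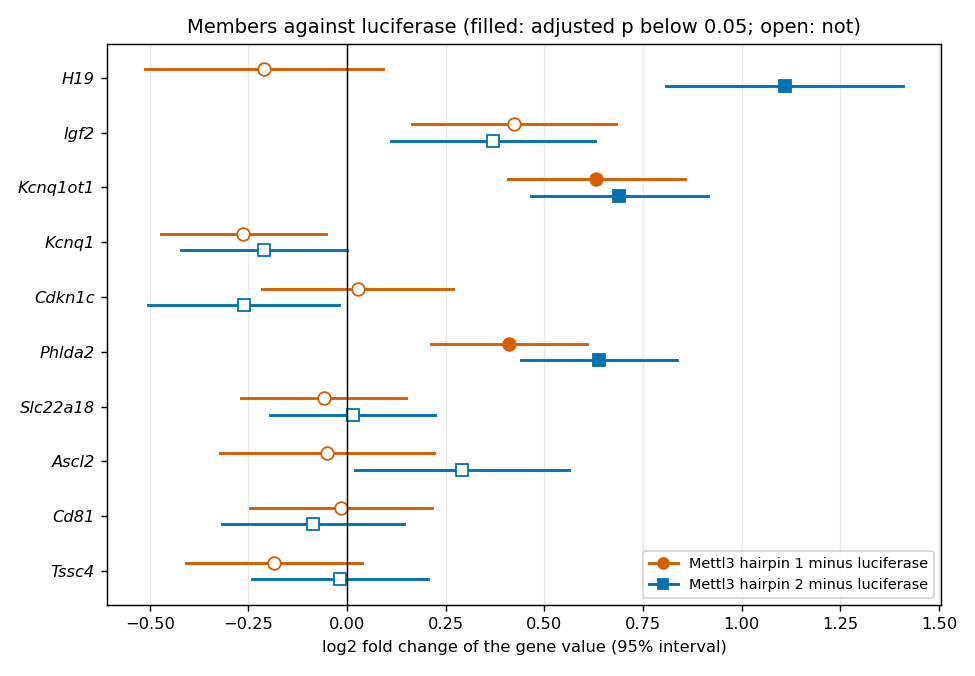
Log2 fold change of each member's gene value against luciferase with its 95% interval; circles are hairpin 1 and squares hairpin 2, filled where the adjusted p is below 0.05. Filled symbols lie at 0.63 and 0.69 for Kcnq1ot1 and at 0.41 and 0.64 for Phlda2, and the H19 symbols lie apart at -0.21 and 1.11.

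Cdkn1c and Slc22a18, also maternally expressed genes of the Kcnq1 domain, did not pass the test with either hairpin. Cdkn1c encodes the cyclin-dependent kinase inhibitor p57, and its gene value was 8.51 and 8.50 with hairpin 1 and 8.06 and 8.36 with hairpin 2, against 8.50, 8.52 and 8.41 with luciferase. Hairpin 1 overlapped luciferase (0.03, 95% interval -0.21 to 0.27, limma adjusted p = 0.915), while both hairpin 2 arrays lay below (-0.26, 95% interval -0.50 to -0.02, limma adjusted p = 0.225). The lowest value was that of hairpin 2 replicate 1: the log2 fold change was -0.11 without it and -0.41 without hairpin 2 replicate 2, and over all 17 alternative settings the value nearest to 0 was -0.027, with median polish of probe sets. With hairpin 2, 3 of 10 probe sets lay below all luciferase arrays. Slc22a18, a member of an organic cation transporter family, had gene values of 8.27 and 8.44 with hairpin 1 and 8.39 and 8.46 with hairpin 2, against 8.44, 8.41 and 8.38 with luciferase. Its groups overlapped, and its log2 fold changes were -0.06 with hairpin 1 (95% interval -0.27 to 0.15) and 0.01 with hairpin 2 (-0.19 to 0.22).

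Ascl2, Cd81 and Tssc4 lie between the well-studied control regions, and their imprinting in mice is best known from the placenta. Ascl2, a basic helix-loop-helix factor required in trophoblast, had gene values of 7.68 and 7.62 with hairpin 1 and 7.94 and 8.04 with hairpin 2, against 7.88, 7.48 and 7.74 with luciferase. It lay above luciferase with hairpin 2 alone, and neither difference passed the test (-0.05 with hairpin 1, limma adjusted p = 0.850; 0.29 with hairpin 2, limma adjusted p = 0.230). Cd81, which encodes a tetraspanin of the cell surface, read 12.68 and 12.78 with hairpin 1 and 12.60 and 12.72 with hairpin 2, against 12.77, 12.62 and 12.85 with luciferase. Its groups overlapped, and the intervals of its log2 fold changes were -0.25 to 0.21 with hairpin 1 and -0.32 to 0.14 with hairpin 2. Tssc4 read 8.24 and 8.34 with hairpin 1 and 8.47 and 8.45 with hairpin 2, against 8.50, 8.58 and 8.35 with luciferase. Its hairpin 1 arrays lay just below luciferase (-0.19, limma adjusted p = 0.313), and its hairpin 2 arrays overlapped (-0.02, limma adjusted p = 0.944).

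Over single probe sets, 102 of 121 were kept: 11 of 14 for H19, 21 of 23 for Igf2, 8 of 11 for Kcnq1ot1, 10 of 19 for Kcnq1, 14 of 15 for Slc22a18, 9 of 10 for Tssc4, and all of those of Cdkn1c, Phlda2, Ascl2 and Cd81. With hairpin 1, 27 of the 102 lay above all luciferase arrays and 11 below; the background was 16.5% and 13.9% of all kept probe sets. With hairpin 2, 38 lay above and 13 below, with a background of 16.2% and 13.2%. H19, Igf2, Kcnq1ot1 and Phlda2, grouped with their values known, hold 44 of the 102 and gave 22 of the 27 and 30 of the 38. None was called with hairpin 1, where limma called 0.0728% of all kept probe sets. At an unadjusted limma p below 0.05 there were 22 of the 102 with hairpin 1 and 35 with hairpin 2. The share of all kept probe sets at this unadjusted level was not counted, so these counts have no background to be read against. Probe sets of 1 gene read the same RNA and are not replicates of each other.

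On the chromosome the members stand in the order H19, Igf2, Ascl2, Cd81, Tssc4, Kcnq1, Kcnq1ot1, Cdkn1c, Slc22a18 and Phlda2. Genes between and beside them were read from a list of 20 neighbours, of which 18 were tested. With hairpin 1, 1 of the 18 was called, Dhcr7, an enzyme of cholesterol synthesis at the far end of the stretch (10.10 and 10.22 with hairpin 1, against 9.55 to 9.72 with luciferase, log2 fold change 0.52, limma adjusted p = 0.0158). With hairpin 2 none was called by limma, and 3 of the 18 had an unadjusted p below 0.05, as had 3059 of all 16353 genes. Dhcr7 differed by 0.38 with hairpin 2 (limma adjusted p = 0.0723). Its hairpin 1 call was lost in 5 of 17 alternative settings, among them those without either hairpin 1 array or luciferase replicate 1 (limma adjusted p up to 0.113), and with hairpin 2 it was called in 4 of 17. The median log2 fold change of the 18 neighbours was -0.08 with hairpin 1 and -0.05 with hairpin 2. Slc22a18, next to Phlda2 on one side, and Nap1l4, next to it on the other, did not pass the test with either hairpin.

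**Figure D4:**
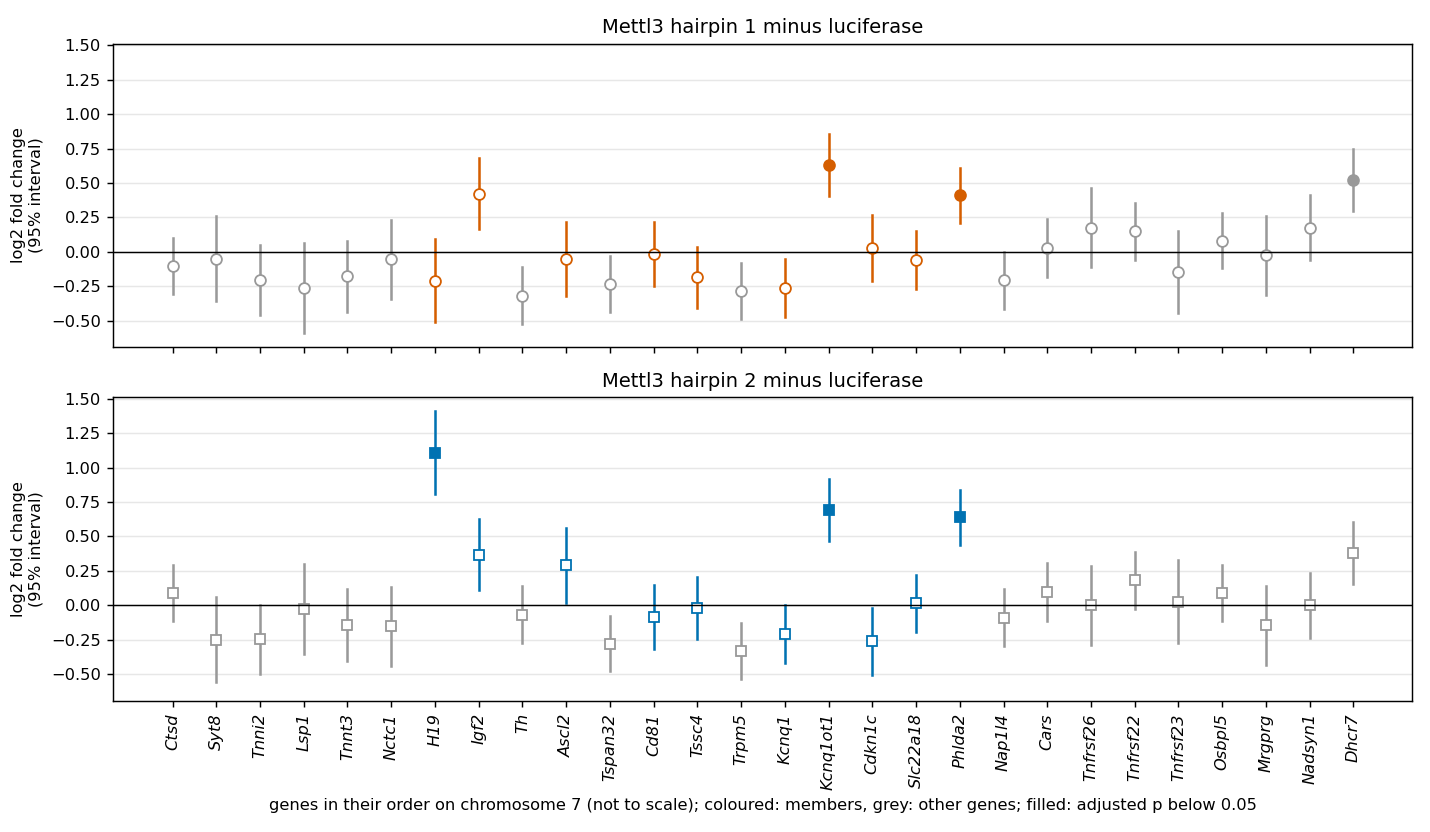
Log2 fold changes with 95% intervals for the members (coloured) and their tested neighbours (grey), in chromosomal order and not to scale, with hairpin 1 above and hairpin 2 below; filled symbols passed the test. Called members are separated by uncalled genes, and Dhcr7 at the right end is the 1 called neighbour, at 0.52 with hairpin 1.

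Genes whose products act on imprints were read from a list of 19, all tested. With hairpin 1, 2 were higher and 1 lower, and with hairpin 2, 1 was higher. Dppa3, which protects imprints from demethylation in the mouse zygote, rose with both hairpins, at 9.23 and 9.49 with hairpin 1 and 9.37 and 9.43 with hairpin 2, against 7.80 to 8.13 with luciferase (log2 fold change 1.35 and 1.39, limma adjusted p = 0.000622 and 0.000869). With hairpin 1 the de novo DNA methyltransferase Dnmt3b rose (0.45, limma adjusted p = 0.0214) and Dnmt3l, its catalytically inactive relative, fell (-0.40, limma adjusted p = 0.0319). With hairpin 2 these differed by 0.37 and -0.27 (limma adjusted p = 0.0590 and 0.137). The hairpin 1 call was lost for Dnmt3l in 11 of 17 alternative settings, among them those without any 1 array, and for Dnmt3b in 6, among them those without either hairpin 1 array or luciferase replicate 1 or 3, while with hairpin 2 Dnmt3b was called in 4 and Dnmt3l in 3. Dppa3 missed the threshold with dim probe sets kept (limma adjusted p = 0.0633 with hairpin 1 and 0.0916 with hairpin 2). Ctcf, Zfp57, Trim28 and the other list members were not called.

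Among 9 receptors, adaptors and RNA-binding proteins connected to Igf2, 1 was called with each hairpin. This was Irs1, an adaptor of insulin and IGF receptors, at 6.80 and 6.85 with hairpin 1 and 6.75 on both arrays with hairpin 2, against 6.06 to 6.43 with luciferase (log2 fold change 0.62 and 0.54, limma adjusted p = 0.0151 and 0.0361). The Irs1 call was lost in 4 of 16 alternative settings with hairpin 1, among them those without either hairpin 1 array, and in 12 of 16 with hairpin 2, among them those without any 1 array other than luciferase replicate 1 (limma adjusted p up to 0.228 with hairpin 2). The median log2 fold change of the 9 was 0.24 with hairpin 1 and 0.26 with hairpin 2, and 8 and 9 of them lay above 0. Of 20 imprinted genes from other chromosomes or regions, 17 were tested and 2 were called higher with each hairpin. The median of these 17 was 0.10 with hairpin 1 and 0.23 with hairpin 2, with 12 and 13 above 0. Over all genes the medians were -0.01 and 0.01. Plagl1, a zinc finger factor known in mice to act on several imprinted genes, rose by 0.73 with hairpin 1 and 0.93 with hairpin 2 (limma adjusted p = 0.00510 and 0.00297). With a stricter filter on dim probe sets its direction reversed. The log2 fold change was then -0.36 with hairpin 1 (limma adjusted p at most 0.0510) and -0.078 with hairpin 2 (limma adjusted p = 0.689). Nnat, an imprinted gene best known from brain, rose by 0.40 and 0.42 (limma adjusted p = 0.0360 and 0.0385), but this call was lost in 12 of 17 alternative settings with hairpin 1 and in 14 of 17 with hairpin 2, the omission of any 1 array among them (0.18 to 0.46, limma adjusted p up to 0.146 and 0.225).

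Markers of cell types that could alter the members' levels were read beside them. None of 10 embryonic stem cell markers was called by limma, and their mean level was 11.93 to 12.06 with hairpin 1 and 12.04 to 12.09 with hairpin 2, against 12.02 to 12.14 with luciferase; over the 3 comparisons the largest differences were those of Klf4 (-0.17 with hairpin 1 and 0.24 with hairpin 2 against luciferase, and -0.41 for hairpin 1 minus hairpin 2) and Dppa5a (-0.20 and -0.34 against luciferase). Of 15 fibroblast markers, which would show feeder cells, 13 were tested and none was called. Their mean level was 7.30 to 7.46 with hairpin 1 and 7.28 to 7.29 with hairpin 2, against 7.32 to 7.48 with luciferase. Dcn differed by 0.24 with hairpin 1 and -0.49 with hairpin 2, and Twist1 by 0.23 and -0.10. Fbn1, chosen after its values were seen, differed by 0.15 with hairpin 1 and 0.30 with hairpin 2 (limma adjusted p = 0.142 with hairpin 2). Most of the list went the other way. Of the 13 markers, 4 lay above 0 with hairpin 1, Dcn, Twist1 and Fbn1 among them, and 1 with hairpin 2, Fbn1. Of all genes, 48.9% and 52.9% lay above 0. The median log2 fold change of the 13 was -0.05 with hairpin 1 and -0.11 with hairpin 2. Of 14 trophoblast markers 9 were tested and none was called, with mean levels of 7.62 to 7.64 with hairpin 1 and 7.66 to 7.67 with hairpin 2, against 7.63 to 7.75 with luciferase; Tfap2a differed by -0.40 with hairpin 1 and -0.18 with hairpin 2, and Gata3 by -0.26 and 0.06. At an unadjusted p below 0.05, with hairpin 1 there were 0 stem cell, 1 fibroblast and 2 trophoblast markers, and with hairpin 2 there were 3, 3 and 0. Over all 16353 genes the counts at this level were 3629 with hairpin 1 and 3059 with hairpin 2. Of 15 primitive endoderm markers, 1 fell with both hairpins: Cubn, an endocytic receptor, by -0.87 with hairpin 1 and -0.66 with hairpin 2 on the log2 scale (limma adjusted p = 0.00113 and 0.00605). The mean level of that list was 7.78 with hairpin 1 and 7.83 to 7.86 with hairpin 2, against 7.89 to 7.93 with luciferase. The Cubn call with hairpin 2 was lost without either hairpin 2 array (limma adjusted p up to 0.0814). Some markers that were not called in the main fit were called lower in alternative settings. These were Dppa5a with hairpin 2 in 4 of 17, Tfap2a with hairpin 1 in 4 of 17, and Dcn with hairpin 2 in 3 of 16. Whether the levels of these marker lists have a part in the members' values was not tested.

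The genes whose values followed the called members most closely over the 7 arrays were ranked by Pearson correlation of gene values among 3500 genes with an SD of at least 0.2. The correlations were 0.992 to 0.995 for Kcnq1ot1, 0.990 to 0.995 for Phlda2 and 0.948 to 0.951 for H19; the 7 points are the same arrays in each case and fall into 3 groups, so they describe these arrays only. For Kcnq1ot1 they were Dppa3, Plagl1 and Akap17b, with log2 fold changes of 1.35, 0.73 and 0.53 with hairpin 1 and 1.39, 0.93 and 0.51 with hairpin 2. Plagl1 had the opposite sign with a stricter filter on dim probe sets. For Phlda2 they were Glod5, Mtss2 and Prkaa2, with 0.91, 0.43 and 0.38 with hairpin 1 and 1.27, 0.63 and 0.58 with hairpin 2. For H19 they were Cacng8, Steap3 and Aqp3, with -0.07, 0.01 and -0.11 with hairpin 1 and 0.35, 0.71 and 0.34 with hairpin 2.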

How the data were processed

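J-1 cells, a mouse embryonic stem cell line, gave 7 RNA samples, each read on 1 exon array. The deposited values are log2 expression values per probe set; per the submitters' processing notes, RMA and R 2.11.1 were used. How probe sets were defined, and on which genome build, is not given in the sources used here. Quantile scaling within RMA equalises the arrays and hides any shift that most transcripts share.

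Symbols came from the platform annotation (311384 probe sets with 1 symbol, 6385 with several, 883569 with none); for 45560 probe sets older symbols were updated through a RefSeq table of GRCm38.p6. Probe sets with a mean at or below 6.02 were called dim and left out; the per-array median of the rest, at least 3, was the value of a gene, and 229811 probe sets entered. One limma model (version 3.58.1, R 4.3.3) took all 7 arrays with 1 mean per group, 4 residual degrees of freedom and a shared spread; p-values were adjusted by Benjamini-Hochberg over all genes or all kept probe sets. The number of arrays limits the precision. Exon usage was tested with diffSplice. It uses an F test and 1 spread for all probe sets of a gene. A second test was added after the data had been seen. It took each probe set minus its gene's mean, with its own spread, and combined p-values by the Simes method. Fits were tested on simulated data, where diffSplice made too many false calls when probe sets differed in spread. The second test made fewer, but still some.

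Replicate numbers were not used to pair samples. Deviations of same-numbered arrays from their group means correlated at -0.26 to 0.08. In a group of 2 arrays these deviations mirror each other, so this check cannot exclude pairing. Members and lists were chosen with earlier results of these data known. Named were Mettl3, the members and their called probe sets, up to 4 called genes of each list (or the 2 with the largest differences), and the 3 genes most like each called member; probe sets named beyond that were chosen after their values were seen. Alternatives were other filters, summaries, scalings and spread models, a replicate block, single groups and leaving out each array.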

Additional observations from a re-analysis of the deposited data

Results flagged for a closer look

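H19 was the 1 named gene for which the hairpins differed by a direct test. Its log2 fold change, hairpin 1 minus hairpin 2, was -1.32 (95% interval -1.65 to -0.99, limma adjusted p = 0.0269), with both hairpin 1 arrays below both hairpin 2 arrays. Over the 17 alternative settings it stayed between -1.44 and -1.01, and the adjusted p ranged from 0.000228 to 0.331.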

How the results depend on the processing

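With 2 or 3 arrays a group, counts of calls moved more than values. Genes called with hairpin 1, hairpin 2 and between hairpins were 964, 619 and 17. They were 320, 92 and 0 with dim probe sets kept (1538 genes between hairpins at an unadjusted p below 0.05), 1503, 1073 and 34 with a filter at the 75th percentile, 2259, 1626 and 79 with the mean, and 2072, 1439 and 76 with median polish of probe sets. Between hairpins, 29 were called with a trended spread and 2 with those groups alone. Without 1 array the ranges were 271 to 729, 63 to 577 and 0 to 4; an array left alone in its group is then assumed to vary like the other groups.

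Members called, 2, 3 and 1, became 0, 1 (Phlda2) and 0 with dim probe sets kept. Where none was called, 3 and 3 members had an unadjusted p below 0.05 (limma), beside 3414 and 1538 of 19993 genes. Without 1 array the ranges were 0 to 2, 1 to 3 and 0 to 1. With hairpin 1 none was called without hairpin 1 replicate 1 (2 at an unadjusted p below 0.05) and only Kcnq1ot1 without hairpin 1 replicate 2 or any luciferase array. With hairpin 2 only H19 was called without either hairpin 2 array.

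Member probe sets called, 0, 1 and 0, became 7, 16 and 5 with a trended spread. How many of all probe sets were called in that setting, or passed the unadjusted level named next, was not counted. With hairpin 2 there was 0 with dim probe sets kept or with the block (27 at an unadjusted p below 0.05 in each), and 0 to 0 without 1 array. Members called for exon usage, 2 and 2, were 0 and 0 with each probe set's own spread, 1 with dim probe sets kept for hairpin 1, and 1 to 2 without 1 array for each hairpin; Igf2 was lost for hairpin 2 without either hairpin 2 array.

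The replicate block, which the labels do not justify, gave 460, 208 and 3 genes and 1 member (Kcnq1ot1) with hairpin 1. Plagl1 reversed with the 75th percentile filter, to -0.36 with hairpin 1 and -0.078 with hairpin 2. Of the other single-gene values, 1083 kept direction and side of the threshold, and 56 kept its side, uncalled, with the other sign. Called values that fell short of the threshold numbered 99, of which 9 were of the single probe set 4719542, and 29 uncalled ones passed it. Ascl2 had no value with the 75th percentile filter. The cause of these moves was not tested.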
